A study of Mus musculus with 35 samples.

Results

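Type 1 conventional dendritic cells (cDC1) of the spleen were compared between mice labelled Mxd1-/- and Mxd1+/+ mice, all taken 18 h after 100 µg of poly IC had been injected into the peritoneum; poly IC mimics viral double-stranded RNA and sets off the interferon response. The comparison rests on 6 of the 35 arrays of the series, 3 labelled Mxd1 knockout (KO) and 3 wild type (WT), chosen by their titles. Each array holds total RNA of cDC1 sorted by flow cytometry, and each value is a log2 level from RMA, a method that corrects, scales and summarises the probes of 1 transcript cluster, the unit that stands for a gene. Replicates within a group are labelled as biological, but nothing says that each is a separate mouse, so p-values measure the spread between these arrays, which may be technical. They give neither the strain nor the age of the mice, and nothing about how the Mxd1 allele was made. Where the effect of Mycl loss is set beside that of Mxd1, it comes from 5 Mycl+/+ and 5 MyclGFP/GFP arrays of splenic cDC1 taken 5 h after the same dose.

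MXD1 is a transcription factor that pairs with MAX and binds the E-box, the DNA element that MYC proteins also bind with MAX. MXD1 with MAX recruits the SIN3 and histone deacetylase corepressor and lowers transcription, while MYC proteins with MAX raise it, most of all at genes that make ribosomes, nucleotides and proteins. Differentiating cells often lose MYC and gain MXD1, and dendritic cells use the family member MYCL in place of much of MYC. The comparison asks what the loss of MXD1 changes in cDC1 that were activated in the animal.

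Promoters of the 2 genes with the largest rises in the labelled KO arrays, Asns and Hebp1, show the elements searched for. RefSeq promoter windows of 300 bases (GRCm38.p6) were at hand for 8 of the 10 genes that passed the test described below. The E-box, CACGTG on either strand, stands in capitals in the promoter of Hebp1 (chr6:135168166-135168465, minus strand). The letters TGATGNAAN, the element bound by C/EBP and ATF proteins such as ATF4, read on both strands, stand in capitals in that of Asns (chr6:7693160-7693459, minus strand).

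Hebp1: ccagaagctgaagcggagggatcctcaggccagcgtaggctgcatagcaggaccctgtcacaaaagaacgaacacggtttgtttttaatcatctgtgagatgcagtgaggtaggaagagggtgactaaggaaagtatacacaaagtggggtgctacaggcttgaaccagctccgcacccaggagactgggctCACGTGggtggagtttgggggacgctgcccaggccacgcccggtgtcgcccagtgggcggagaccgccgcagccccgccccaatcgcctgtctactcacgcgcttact
Asns: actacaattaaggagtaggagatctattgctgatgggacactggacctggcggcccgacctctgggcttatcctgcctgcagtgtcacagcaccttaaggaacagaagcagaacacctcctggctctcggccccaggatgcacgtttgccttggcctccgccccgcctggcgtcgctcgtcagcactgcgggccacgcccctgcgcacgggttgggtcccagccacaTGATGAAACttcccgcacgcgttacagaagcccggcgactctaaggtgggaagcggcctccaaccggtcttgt

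The Hebp1 window was the 1 of these 8 (12.5%) with an E-box, whose first base lies at -58 from the annotated start. The share was 8.09% of all 27025 promoters and 10.9% of those of genes tested, so 1 of 8 is near that background. The C/EBP and ATF element was likewise in 1 of 8, against 4.5% of all promoters and 2.79% of those of genes tested. Among genes whose labelled KO arrays all lay above the WT arrays, 13.7% of 1391 windows held an E-box, and among those whose labelled KO arrays all lay below, 9.5% of 1189 did. These shares describe letters in a window and not sites that a factor was shown to bind.

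The WT arrays varied more than the labelled KO arrays. Across the 14080 genes tested, the 3 labelled KO arrays correlated with each other at r = 0.996 in every pair, whereas WT array 1 and WT array 3 correlated at 0.981. WT array 2 correlated at 0.988 and 0.987 with the other WT arrays and at 0.993 to 0.995 with the labelled KO arrays, which it resembled more than its own group. The median SD of a gene was 0.136 among WT arrays and 0.0748 among labelled KO arrays. Each pair of arrays shared at most 47 exactly equal values of 35556. Counts are also given without arrays on which they rest.

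Mxd1 itself was measured by 1 transcript cluster, the only one annotated to it here. Its log2 level was 11.03, 10.81 and 10.63 in the WT arrays and 10.64, 10.49 and 10.41 in the labelled KO arrays. The lowest WT array lay just under the highest labelled KO array, so the groups overlapped. The means were 10.82 ± 0.20 (SD, n = 3) in WT and 10.51 ± 0.11 in labelled KO arrays, a difference of -0.31 ± 0.12 (SE) that leaves the labelled KO at 80.7% of the WT level. It did not pass limma's test over all 15363 clusters (adjusted p = 0.270), and an exact permutation test gave p = 0.2 where 3 against 3 arrays cannot go below 0.1 (two-sided). The Mxd1 transcript level thus does not bear out the genotype label, and whether the probes of this cluster lie outside the deleted part of the gene was not tested. The arrays are called labelled KO for this reason, and every direction below is drawn between the labels. Elsewhere in the series, where levels of different sets are values only and were not compared, Mxd1 averaged 7.91 to 9.44 in the steady-state groups, 9.94 ± 0.88 (SD, n = 5) in Mycl+/+ and 10.60 ± 0.10 (n = 5) in MyclGFP/GFP cells 5 h after poly IC.

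The other members of the MYC and MAX network stayed within modest differences, and 0 of its 13 members tested passed limma's test. The share called among all genes was 0.071% in either direction, so a count of 0 of 13 is near that background. Mycl, the MYC protein of dendritic cells, was at 9.05, 9.74 and 9.41 in WT and 9.72, 9.65 and 9.74 in labelled KO arrays. Myc, its broadly acting relative, was at 6.36, 7.33 and 7.83 in WT and 6.75, 7.23 and 6.79 in labelled KO arrays. The groups overlapped for both genes, and the WT arrays were spread wider than the labelled KO arrays, with WT array 1 lowest. Mycn differed by 0.07 ± 0.08 (adjusted p = 0.698).

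Max, the shared partner, lay above every WT level in each labelled KO array, at 9.37, 9.30 and 9.42 against 8.86, 9.29 and 9.09, a difference of 0.29 ± 0.11 (adjusted p = 0.279). WT array 2 came within reach of the lowest labelled KO array. Among the repressors that can pair with MAX in place of MXD1, Mxi1 (0.01 ± 0.09), Mxd3 (0.07 ± 0.11) and Mxd4 (0.07 ± 0.07) overlapped between groups. Mnt, the most widely expressed of them, was at 7.88, 7.87 and 8.12 in WT and 7.83, 7.84 and 7.79 in labelled KO arrays (-0.14 ± 0.09, adjusted p = 0.492), without overlap but with a gap smaller than the spread of the WT arrays. Mga, which joins MAX to a Polycomb complex, differed by 0.23 ± 0.10 (adjusted p = 0.327). In the parallel MLX branch, which senses glucose phosphates, Mlxip (MondoA) was at 8.85, 8.77 and 9.14 in WT and 8.61, 8.48 and 8.59 in labelled KO arrays (-0.36 ± 0.11, adjusted p = 0.212). That is the smallest p of the network, with no overlap. Mlx differed by 0.17 and Mlxipl by -0.13, both with overlap. Of the 17 subunits of the SIN3 and histone deacetylase complex that MXD1 recruits, 0 passed, 8 lay above and 9 below 0, and their median difference was -0.03.

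**Figure D1:**
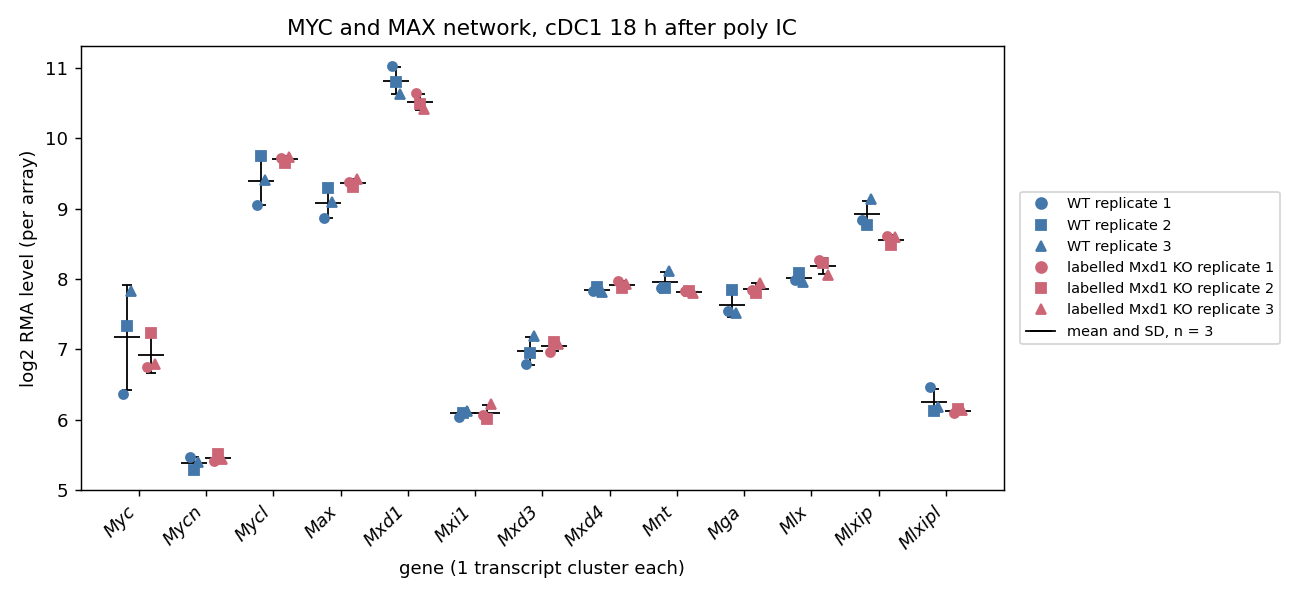
Log2 RMA level of each MYC and MAX network gene (x axis) in the 3 WT and 3 labelled Mxd1 KO arrays, with black marks for the mean and SD. Mxd1 overlaps between the groups, and the Myc levels of the WT arrays span 6.36 to 7.83; levels of different genes come from different probes and are not compared.

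Across the transcriptome, 10 of 14080 genes passed limma's test (adjusted p under 0.05, 0.071%), 4 of them higher (0.0284%) and 6 lower (0.0426%) in the labelled KO arrays. An unadjusted p under 0.05 was reached by 2236 genes (15.9%), 1339 higher (9.51%) and 897 lower (6.37%). In 1668 genes every labelled KO array lay above every WT array (11.8%), and in 1514 every one lay below (10.8%). The median difference over all genes was -0.00226. The count of calls moved with single arrays. It was 4 without WT array 1, 568 without WT array 2 (426 higher), 3 without labelled KO array 1 or 2, and 4 without labelled KO array 3. Without WT arrays 1 and 3 together, where the 1 WT array left is assumed to vary like the labelled KO arrays, it was 17. Sharing the spread of all 8 groups of the series gave 235 calls, of which 148 were higher, and weighting each array by its quality gave 18. Asns, Hebp1 and Lad1 kept their call under all 16 alternatives run, and the other 7 genes kept their direction but lost the call without WT array 1 and without each labelled KO array in turn.

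Asns, which makes asparagine from aspartate and glutamine and is a classic target of the amino acid stress factor ATF4, showed the largest rise. It was at 6.20, 6.29 and 6.30 in WT and 8.53, 9.21 and 8.32 in labelled KO arrays, a difference of 2.42 ± 0.20 or 5.36-fold (adjusted p = 0.00521). The lowest labelled KO array lay far above the WT arrays, which were nearly equal. Hebp1, a haem-binding protein that also yields a chemoattractant peptide, was at 5.82, 5.92 and 5.90 in WT and 7.38, 7.58 and 7.48 in labelled KO arrays (1.60 ± 0.08, 3.03-fold, adjusted p = 0.000372). Both groups were tight, and no other gene had a smaller p. Cd207, which encodes langerin, a C-type lectin of Langerhans cells and of some cDC1, was at 6.17, 6.05 and 6.37 in WT and 7.26, 7.22 and 7.64 in labelled KO arrays (1.18 ± 0.13, adjusted p = 0.0272). Snx9, a sorting nexin that remodels membranes during endocytosis, was at 7.55, 7.88 and 7.78 against 8.75, 8.67 and 8.50 (0.90 ± 0.11, adjusted p = 0.0389). Neither gene overlapped between groups.

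Lad1, an anchoring filament protein of basement membranes, showed the largest fall. It was at 8.45, 8.55 and 8.33 in WT and 6.99, 6.59 and 6.69 in labelled KO arrays, so that it fell by 1.69 ± 0.12 on the log2 scale (3.22-fold lower, adjusted p = 0.00199). Hspa1a, the stress-inducible HSP70, was at 10.02, 9.97 and 10.75 in WT and 8.76, 8.61 and 8.69 in labelled KO arrays (-1.56 ± 0.19, adjusted p = 0.0389). WT array 3 stood highest, and the labelled KO arrays were nearly equal. Probes of Hspa1a may also read its near-identical copy Hspa1b, which had no cluster of its own here.

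A pair of ligands that dendritic cells show to T cells fell. Tnfsf9 (4-1BBL), which costimulates T cells through 4-1BB, was at 7.69, 7.33 and 7.79 in WT and 6.28, 6.38 and 6.51 in labelled KO arrays (-1.21 ± 0.13, 2.32-fold lower, adjusted p = 0.0220). Pdcd1lg2 (PD-L2), an inhibitory ligand of PD-1, was at 7.58, 7.42 and 7.55 against 6.93, 6.74 and 6.83 (-0.68 ± 0.09, adjusted p = 0.0490). The groups did not overlap for either gene, and Pdcd1lg2, just inside the threshold, kept its call under 6 of the 16 alternatives. Spic, an ETS factor best known from red pulp macrophages of the spleen, was at 8.92, 8.79 and 8.98 in WT and 7.89, 7.52 and 7.86 in labelled KO arrays (-1.14 ± 0.11, adjusted p = 0.0197). Gas5, a long noncoding RNA that hosts small nucleolar RNAs and accumulates when translation or growth slows, was at 13.27, 13.17 and 13.09 against 12.39, 12.47 and 12.28 (-0.79 ± 0.09, adjusted p = 0.0272). All labelled KO arrays lay below all WT arrays in both genes.

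**Figure D2:**
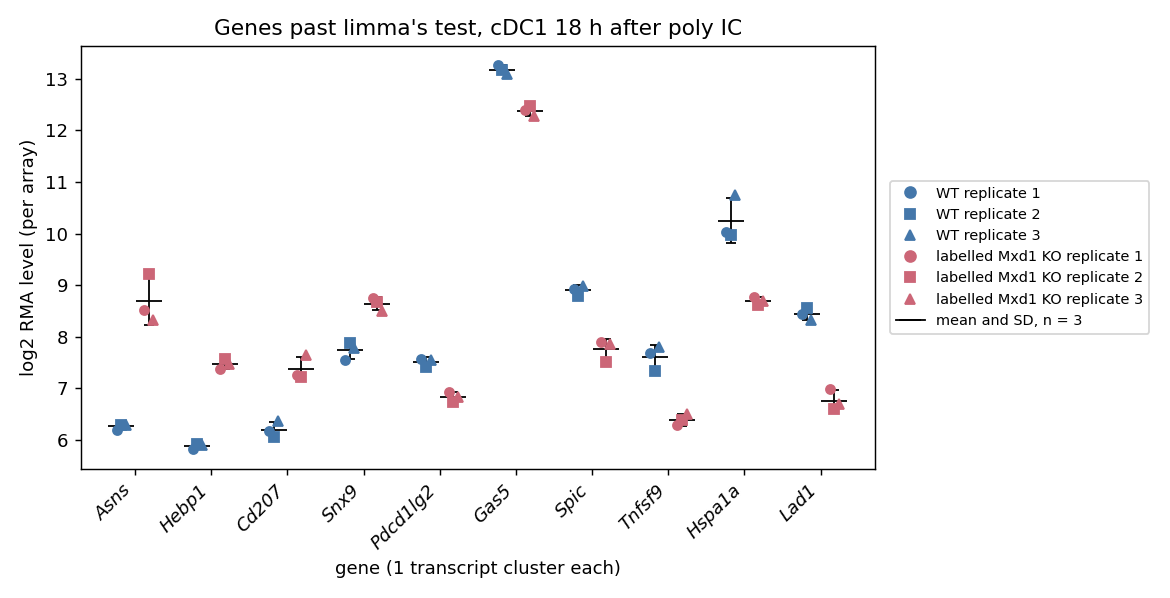
Log2 RMA level of the 10 genes that passed limma's test (x axis, ordered from the largest rise to the largest fall) in each WT and labelled Mxd1 KO array, with black marks for the mean and SD of 3 arrays. In every gene the 3 arrays of one group lie clear of those of the other, from the 5.36-fold rise of Asns to the 3.22-fold fall of Lad1.

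The next genes by p did not pass. Daglb, a diacylglycerol lipase, and Tmem242 were nearest among the higher genes (0.73 ± 0.10 and 0.85 ± 0.11, adjusted p = 0.0525 for each). Ciita, the master activator of MHC class II genes, was at 9.49, 10.01 and 9.38 in WT and 10.70, 10.71 and 10.64 in labelled KO arrays (1.06 ± 0.15, adjusted p = 0.0843). Dapk1, a death-associated kinase (0.94 ± 0.14), Tmeff1 (0.60 ± 0.08), Fam234b (0.62 ± 0.10), the junction protein gene Afdn (0.59 ± 0.09) and the phosphatase gene Ppef2 (0.52 ± 0.08) followed, with adjusted p between 0.0787 and 0.0956. Among the lower genes, Ccl22, a chemokine that draws regulatory T cells, was at 7.89, 7.54 and 7.82 in WT and 7.05, 7.06 and 6.90 in labelled KO arrays (-0.74 ± 0.11, adjusted p = 0.0843). Casp4, the inflammatory caspase that senses cytosolic lipopolysaccharide, was at 7.81, 7.79 and 7.80 against 6.47, 6.64 and 7.16 (-1.04 ± 0.16, adjusted p = 0.0956). Eps8l1 (-0.85), Megf9 (-0.67), the receptor partner gene Ramp3 (-0.90) and the phosphatase gene Inpp5a (-0.58) had adjusted p between 0.0866 and 0.0956. None of these groups overlapped, and none of these genes passed.

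The labelled cell type was borne out by the cDC1 markers. Across the 6 arrays the chemokine receptor gene Xcr1 lay between 10.35 and 11.15, and the factor genes Irf8 and Batf3 between 12.25 and 12.55 and between 10.97 and 11.31, where array medians were 5.95 to 6.01. These 3 genes were picked from the list and not by the naming rule given below. Hepacam2, of the same list, lay between 6.22 and 7.48. Of 26 cDC1 identity genes tested, 0 passed, 22 lay above 0 (background 49.4%), 10 were higher without overlap (background 11.8%) and the median difference was 0.20. Hepacam2 (0.67 ± 0.18), the lipid hydrolase gene Naaa (0.49 ± 0.13) and the inhibitory receptor gene Btla (0.63 ± 0.19) had the smallest p, with adjusted p of 0.192 to 0.209, while Clec9a (-0.09) and Batf3 (-0.08) lay near 0. The list mean was 9.97 in WT array 1 and 10.32 to 10.46 in the other 5 arrays, and the median difference was 0.12 without WT arrays 1 and 3. In sorted bulk samples, fewer cells of a type and less RNA per cell cannot be told apart.

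Markers of other cells held 1 call, Spic (background 0.071%). The T and natural killer cell genes that could be tested (10 of 21 listed, with 8 under the filter) had a mean of 6.06 to 6.21 in WT and 5.88 to 6.06 in labelled KO arrays, which overlapped, and 9 of the 10 lay below 0, with Klrd1 at -0.44 ± 0.08 (adjusted p = 0.127). Klrd1 was at 5.02, 4.86 and 4.89 in labelled KO arrays, under the level that a gene needed to be tested (5.17 to 5.19). It passed the filter only through the WT arrays, so the filter favoured its direction. The count of 9 includes it, and its place there is no support. Monocyte and macrophage genes (13 of 19 tested) had a mean of 6.60 to 6.85 in WT and 6.72 to 6.76 in labelled KO arrays. While Spic fell, the other 12 ranged from C1qb (-0.16) to Hmox1 (0.34). Neutrophil genes (5 of 11 tested) ran from 5.76 to 6.05 and from 5.88 to 6.32, with 4 of the 5 above 0, a median of 0.28 and Mpo at 0.51 ± 0.15 (adjusted p = 0.206). B cell genes (7 of 14 tested) and erythroid genes (3 of 10) had medians of -0.05 and -0.09. Of the markers of cDC2, the other conventional dendritic cell, 10 of 15 were tested with a median of -0.06, Irf4 being at 7.10, 7.03 and 6.94 in WT and 6.49, 6.27 and 6.61 in labelled KO arrays (adjusted p = 0.122). Plasmacytoid dendritic cell genes (10 of 13 tested) had 8 members below 0, a median of -0.05 and a mean of 7.14 to 7.24 in WT and 7.04 to 7.07 in labelled KO arrays, without overlap, with the ETS factor gene Spib at -0.58 ± 0.11 (adjusted p = 0.130). The part of other cell types in the results was not tested.

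Genes of DNA replication and mitosis lay higher in the labelled KO arrays as a group. All 45 members tested (of 48 listed) lay above 0 and 31 were higher without overlap (background 11.8%), with a median of 0.43 and a range of 0.11 to 0.73, although 0 passed the test. Bub1b, a spindle checkpoint kinase, differed by 0.58 ± 0.10 (adjusted p = 0.101) and Hmmr, a spindle protein, by 0.54 ± 0.11 (adjusted p = 0.136). Hmmr was at 4.90, 4.93 and 4.86 in WT arrays, under the level that a gene needed to be tested (5.18 to 5.25). It passed the filter only through the labelled KO arrays, so the filter favoured its direction. The counts of 45 and 31 above include it, and its place in them is no support. Rrm1, the large subunit of ribonucleotide reductase, was at 6.34, 6.66 and 6.56 in WT and 6.97, 7.05 and 7.34 in labelled KO arrays (0.60 ± 0.12, adjusted p = 0.137), with labelled KO array 3 highest. The mean of the list was 7.05, 7.32 and 7.38 in WT and 7.56, 7.63 and 7.82 in labelled KO arrays. Every labelled KO array stood above every WT array, and the median stayed between 0.32 and 0.50 with any array left out or WT arrays 1 and 3 left out together. The D and E cyclins, cyclin-dependent kinases, their inhibitors and E2F genes had a median of 0.01 (22 tested, 0 passed). Without overlap, 6 were higher and 1 lower (backgrounds 11.8% and 10.8%), in a list that mixes activators and inhibitors. Within it E2f3 (0.44 ± 0.10, adjusted p = 0.162) and E2f1 (0.35 ± 0.10, adjusted p = 0.206) lay higher, and the inhibitor gene Cdkn1b (p27) was at 10.79, 10.76 and 11.10 in WT and 10.54, 10.57 and 10.63 in labelled KO arrays (-0.30 ± 0.10, adjusted p = 0.244).

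Genes that MYC proteins are known to drive lay slightly higher, with 0 calls. Of 73 ribosome biogenesis genes, 72 lay above 0 (background 49.4%), 29 were higher and 0 lower without overlap (backgrounds 11.8% and 10.8%), and the median was 0.23. Sdad1 was at 7.73, 8.47 and 7.83 in WT and 8.56, 9.01 and 8.91 in labelled KO arrays (adjusted p = 0.171), and Nop58, a core protein of box C/D small nucleolar RNPs, was at 7.15, 7.87 and 7.24 against 8.01, 8.09 and 8.29 (adjusted p = 0.183). WT array 2 came close to the labelled KO arrays in both. Wdr3 differed by 0.45 ± 0.13 (adjusted p = 0.201). The list mean was 7.37, 7.78 and 7.70 in WT and 7.82, 7.87 and 7.89 in labelled KO arrays, and the median dropped to 0.08 when WT arrays 1 and 3 were left out. The 61 MYC target core genes, some of them shared with that list, had 55 members above 0, 19 higher and 3 lower without overlap (the same backgrounds) and a median of 0.19, again 0.08 without WT arrays 1 and 3. Their 2 smallest p belonged to members that lay lower, the phosphatase gene Dusp2 (-0.41 ± 0.09, adjusted p = 0.153) and Odc1, the first enzyme of polyamine synthesis (-0.36 ± 0.09, adjusted p = 0.169). Prmt3 followed at 0.33 ± 0.09 (adjusted p = 0.192). E-boxes stood in 36.5% of 52 MYC target core promoters and 21.7% of 60 ribosome biogenesis promoters, against 10.9% of those of genes tested. In the DNA replication and mitosis list they stood in 2.7% of 37 promoters. Whether an E-box goes with the size of a difference was not tested.

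Most other lists of growth had medians above 0 as well. The 20 genes of the RNA polymerase I machinery had 15 members above 0 and a median of 0.16, led by Taf1a (0.57 ± 0.17, adjusted p = 0.207), and the largest subunit gene Polr1a was at 0.41. Translation factors (36 of 38 above 0, median 0.22) were led by Eif3l, at 7.96, 8.28 and 8.23 in WT and 8.63, 8.68 and 8.62 in labelled KO arrays (adjusted p = 0.136). Cytosolic aminoacyl-tRNA synthetases (17 of 18 above 0, median 0.27) included Lars at 0.52 ± 0.13 (adjusted p = 0.171) and Sars at 0.40 ± 0.11 (adjusted p = 0.195). Nucleotide and one-carbon synthesis (24 of 26 above 0, median 0.14) was led by the purine enzyme gene Adsl (0.58 ± 0.15, adjusted p = 0.183). Glycolysis had 15 of 18 above 0 and a median of 0.12, with Pfkp at 0.48 (adjusted p = 0.231) and Ldha at 0.44 (adjusted p = 0.235). Leaving out WT arrays 1 and 3 lowered the medians to 0.04 for RNA polymerase I, 0.06 for translation factors and 0.04 for the synthetases. Oxidative phosphorylation (45 of 50 above 0, median 0.12, led by Uqcrc1 at 0.41) and the mitochondrial ribosome (49 of 60, median 0.10, led by Mrpl18 at 0.28) turned to -0.01 and -0.02 without WT array 1. Cytosolic ribosomal proteins showed no common shift, with 34 of 55 above 0, a median of 0.01 and Rpl29 at -0.29 ± 0.10 (adjusted p = 0.234). None of these 8 lists had a member past the test.

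**Figure D3:**
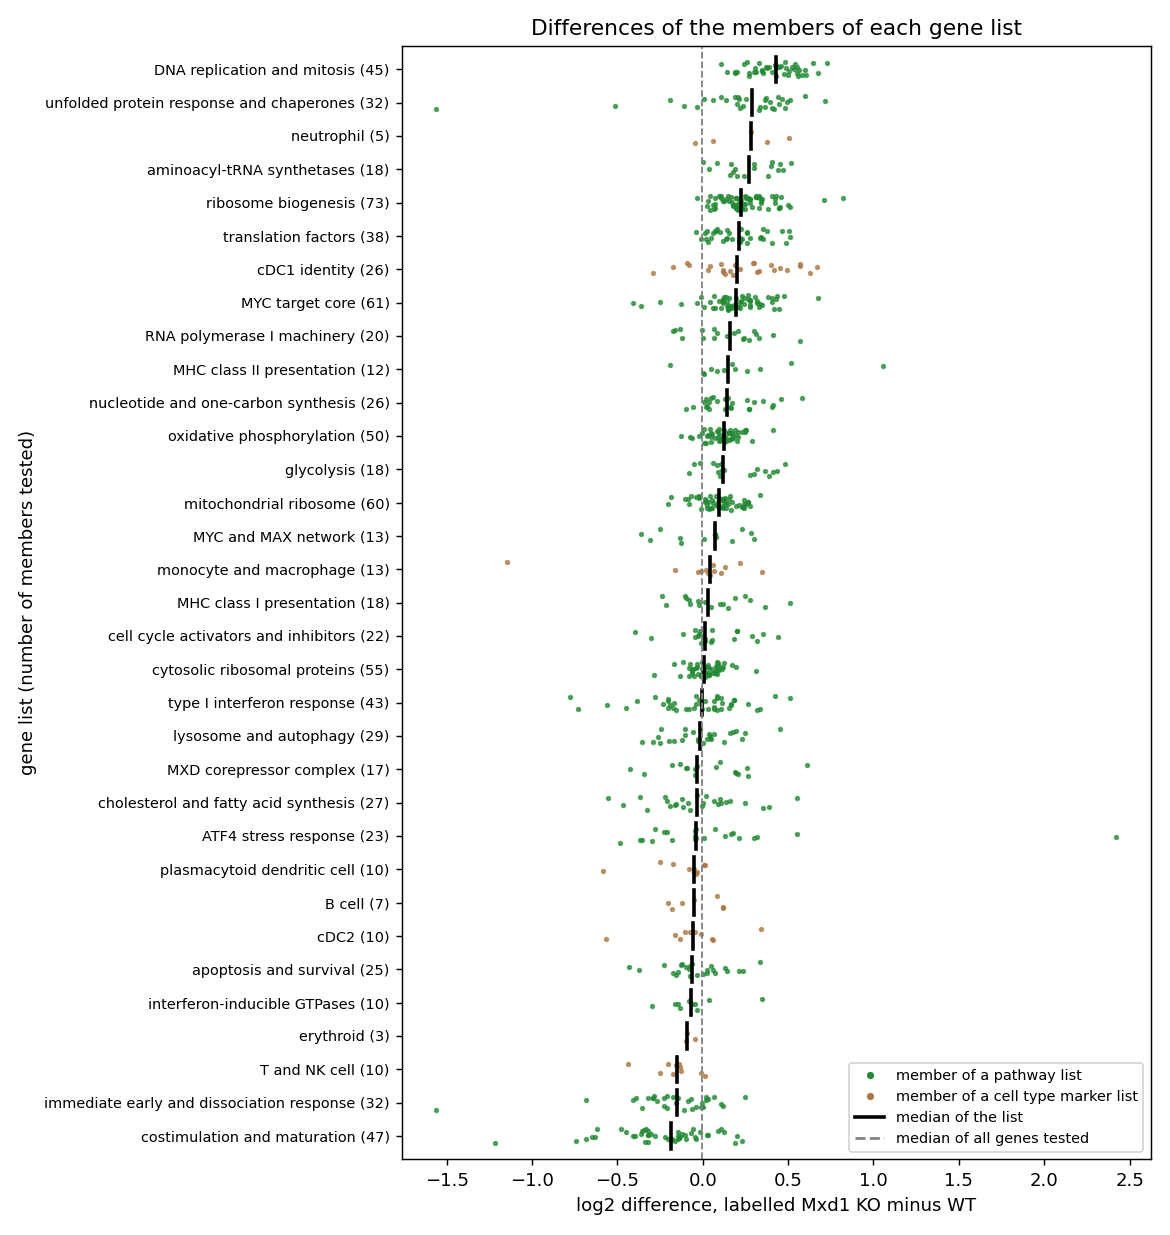
Log2 difference of labelled Mxd1 KO minus WT (x axis) for each tested member of the 33 gene lists, sorted by the list median (black bar), with a dashed line at the median of all genes. The 45 DNA replication and mitosis genes all lie right of 0, most costimulation and maturation genes lie left, and Asns (2.42) stands alone among the ATF4 genes.

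The ATF4 programme did not share a direction with Asns. Of 23 ATF4 stress genes tested, Asns was the 1 that passed the test (background 0.071%). With Asns counted, 10 lay above and 13 below 0, and the median was -0.04. Without overlap, 5 were higher and 6 lower (backgrounds 11.8% and 10.8%). Slc7a5, which carries large neutral amino acids into cells, was next at 7.90, 8.36 and 8.15 in WT and 8.78, 8.58 and 8.70 in labelled KO arrays (0.55 ± 0.12, adjusted p = 0.153). Ppp1r15a (GADD34), which ends the stress response, was at -0.49 ± 0.11 (adjusted p = 0.162). Atf4 itself (-0.30 ± 0.10), Ddit3 (-0.37 ± 0.10), Trib3 (-0.04 ± 0.08) and the serine enzyme genes Psat1 (0.30 ± 0.11) and Phgdh (0.17 ± 0.08) were picked out after their values were seen, and none passed. The C/EBP and ATF element searched for stood in 7 of the 20 promoters of this list (35%). It also stood in 4 of the 11 promoters of the aminoacyl-tRNA synthetase list (36.4%), against 2.79% of those of genes tested.

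Chaperone genes held 1 call, Hspa1a (background 0.071%). Among 32 genes of the unfolded protein response and of protein folding, 27 lay above 0, 15 were higher and 3 lower without overlap (backgrounds 11.8% and 10.8%), with a median of 0.29 that became 0.09 without WT arrays 1 and 3. Hsp90b1 (GRP94), the HSP90 of the endoplasmic reticulum, was at 10.78, 11.42 and 10.53 in WT and 11.64, 11.62 and 11.63 in labelled KO arrays (0.72 ± 0.19, adjusted p = 0.195). Hspa1a, the 1 called member, and Dnajb1, its cochaperone (-0.51 ± 0.13, adjusted p = 0.176), lay the other way. Immediate early and dissociation response genes, which are switched on within minutes of stimulation or of tissue digestion, lay lower. Of 32 tested, Hspa1a was called lower (background 0.0426%) and 24 lay below 0 (background 50.6%). Without overlap, 14 were lower and 0 higher (backgrounds 10.8% and 11.8%), and the median was -0.15. Dusp2 was at 10.96, 10.72 and 10.89 in WT and 10.50, 10.47 and 10.38 in labelled KO arrays, and Jund at 7.84, 7.76 and 7.71 against 7.50, 7.45 and 7.49 (adjusted p = 0.153 and 0.189). The list mean was 9.28 to 9.38 in WT and 9.12 to 9.20 in labelled KO arrays, and the median stayed between -0.19 and -0.11 with arrays left out. Whether handling of the spleens differed between the groups was not tested.

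Costimulation and maturation genes, which dendritic cells switch on when they are activated, lay lower in the labelled KO arrays. Of 47 tested, 2 were called lower, Tnfsf9 and Pdcd1lg2, and 0 were called higher (backgrounds 0.0426% and 0.0284%). A total of 39 lay below 0 (background 50.6%), 18 were lower and 0 higher without overlap (backgrounds 10.8% and 11.8%), and the median was -0.18. The list mean was 9.69, 9.53 and 9.46 in WT and 9.39, 9.30 and 9.28 in labelled KO arrays, without overlap, and the median stayed between -0.26 and -0.14 with arrays left out. Ccl22 followed them. Cd80, the CD28 ligand, chosen after its values were seen, was at 10.60, 10.38 and 10.43 in WT and 10.01, 9.78 and 9.77 in labelled KO arrays (-0.62 ± 0.10, adjusted p = 0.0958). Its partner Cd86 lay on the other side of 0 (0.23 ± 0.11), and the homing receptor gene Ccr7 (-0.14 ± 0.10), Cd40 (-0.14 ± 0.10) and Il12b (0.20 ± 0.16) overlapped between groups.

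The type I interferon response, which poly IC sets off, had no common direction. Of 43 genes tested, 0 passed, 21 lay above and 22 below 0, and the median was -0.005. Samd9l was at 8.59, 8.83 and 8.67 in WT and 9.24, 9.25 and 9.14 in labelled KO arrays (0.51 ± 0.09, adjusted p = 0.101). Oasl2 (-0.78 ± 0.22, adjusted p = 0.202) and the chemokine gene Cxcl10 (-0.73 ± 0.23, adjusted p = 0.228) lay lower without overlap. The list mean was 9.15 to 9.32 in WT and 9.06 to 9.35 in labelled KO arrays, which overlapped. Interferon-inducible GTPases, which attack vacuoles of intracellular microbes, had 8 of 10 below 0 and a median of -0.07, with Irgm1 at 0.35 and Gbp5 at -0.30. Genes of MHC class I presentation had 10 of 18 above 0 and a median of 0.03, and the chaperone gene Canx among them was at 0.51 ± 0.15 (adjusted p = 0.206). For MHC class II presentation 11 of 12 lay above 0 with a median of 0.15 and 0 passed. Ciita led that list, H2-Ob followed at 0.52 ± 0.16 (adjusted p = 0.225), and H2-DMa was at 0.26.

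**Figure D4:**
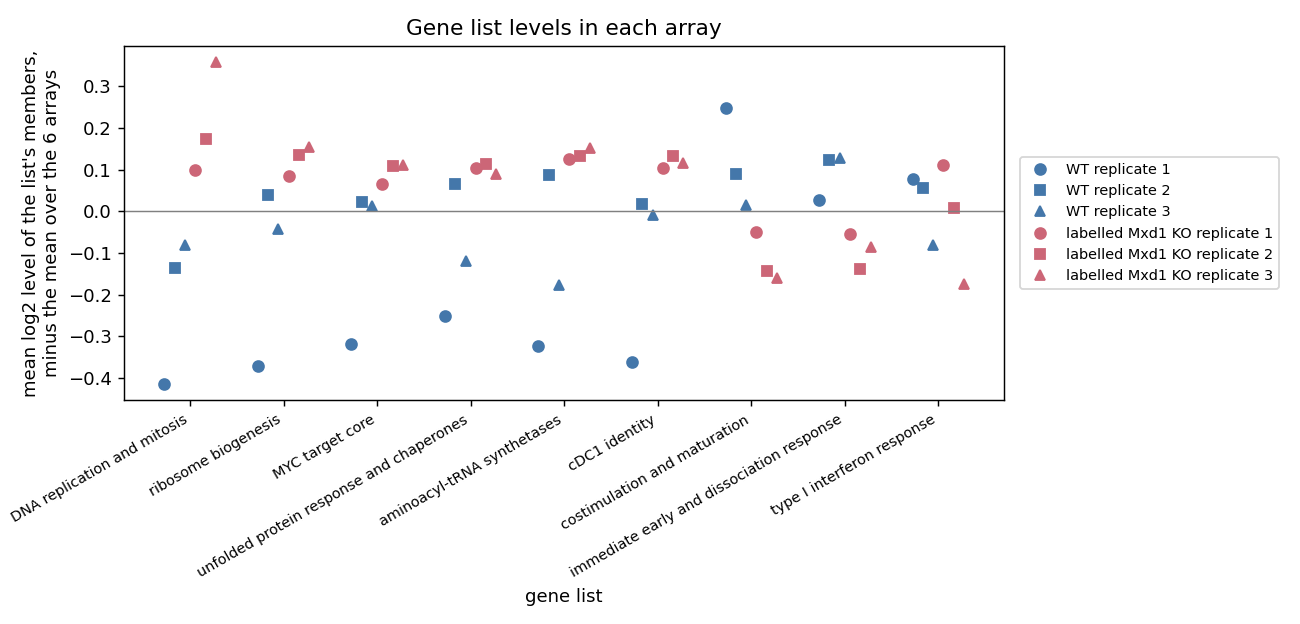
Mean log2 level of the members of 9 gene lists (x axis) in each array, less the mean over the 6 arrays (y axis). WT array 1 is lowest in the first 6 lists, where WT array 2 or 3 lies nearer to the labelled KO arrays; the groups overlap in the type I interferon list alone of the 9 shown.

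The genes next to Mxd1 on chromosome 6 were described because a targeted allele can carry neighbouring sequence of another strain. Of the 20 tested genes on each side, 0 passed, 8 of 40 had an unadjusted p under 0.05 (background 15.9%), 11 did not overlap (background 22.6%) and the median was 0.05. Asprv1, a skin-type aspartic protease gene and the immediate neighbour, differed most. It was at 12.30, 11.86 and 11.90 in WT and 11.49, 11.17 and 10.98 in labelled KO arrays (-0.81 ± 0.16, adjusted p = 0.130), without overlap. Cct7, a chaperonin subunit gene (0.44 ± 0.13, adjusted p = 0.208), and Cnbp (0.44 ± 0.14, adjusted p = 0.223) were next. With 40 genes on each side, Cd207 entered as the 1 called gene (background 0.071%). Chromosome 6 carried 684 of the genes tested (4.87%) and 3 of the 10 called, namely Asns, Hebp1 and Cd207. Of these 3, only Cd207 lay within 40 tested genes of Mxd1. Their promoter windows begin at base 7693160 for Asns, 83677808 for Cd207 and 135168166 for Hebp1, and that of Mxd1 begins at 86669110. Fam234b, which was not called, lies on the same chromosome. Nnt, the mitochondrial transhydrogenase gene that some C57BL/6 substrains lack in part, lies on chromosome 13 and was chosen after its values were seen. It was at 6.21, 6.79 and 6.58 in WT and 7.42, 7.22 and 7.49 in labelled KO arrays (0.85 ± 0.15, adjusted p = 0.104). The part of strain background in these results was not tested.

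**Figure D5:**
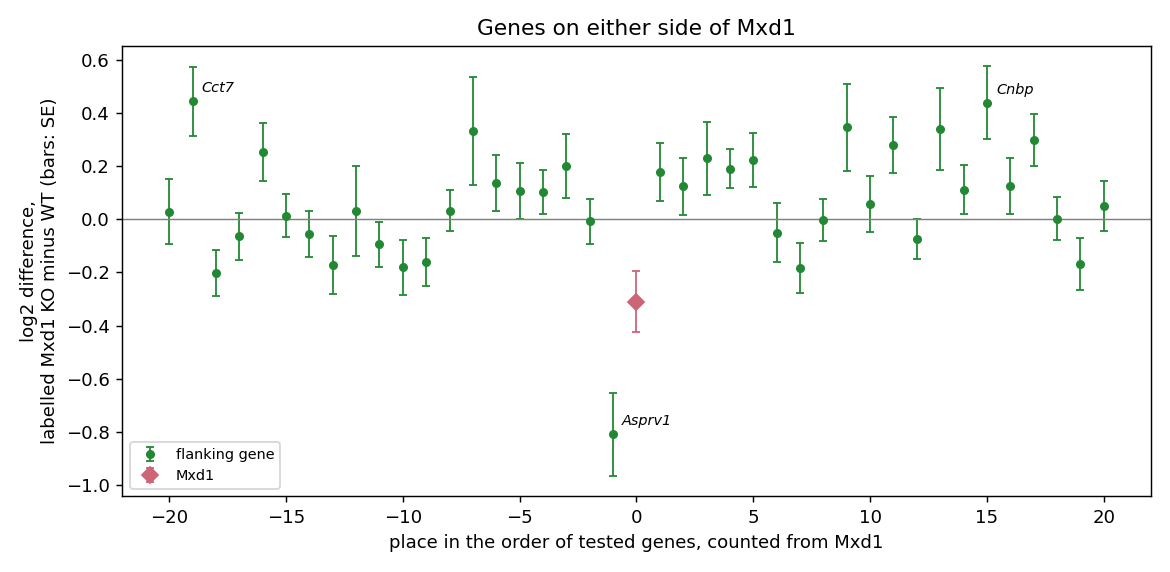
Log2 difference of labelled Mxd1 KO minus WT with its SE (y axis) for the 20 tested genes on each side of Mxd1, by their place in the gene order (x axis). Asprv1, next to Mxd1, is lowest at -0.81, and the other neighbours lie between -0.20 and 0.44.

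The effects of Mxd1 and Mycl were set against each other because both proteins act through MAX, with opposite sign in the textbook scheme. The test compared the labelled KO minus WT difference at 18 h with the MyclGFP/GFP minus Mycl+/+ difference at 5 h, each taken within its own set, and the times differ. Of 14785 genes, 9 passed (0.0609%), the Mxd1 effect being the higher in 5 (0.0338%) and the lower in 4 (0.0271%). Hebp1 (1.60 against -0.03, adjusted p = 1.05e-07 for the difference), Asns (2.42 against 0.33, adjusted p = 0.00456) and Cd207 (1.18 against -0.25, adjusted p = 0.0120) differed in the direction of their rise here. Clec16a, an autophagy gene, followed (0.62 against -0.14, adjusted p = 0.0120). On the other side stood Ramp3 (-0.90 against 0.22, adjusted p = 0.0120), the phosphatase gene Dusp10 (-0.45 against 0.21, adjusted p = 0.0148) and Hspa1a (-1.56 against 0.97, adjusted p = 0.0346). Ccl4, a chemokine gene, was the 1 of these 8 with a called Mycl effect (0.78 ± 0.11, adjusted p = 0.0113), against -0.34 here (adjusted p = 0.0299 for the difference). The count was 235 without WT array 2, 6 without WT array 3 and 2 without labelled KO array 3. MyclGFP/GFP array 3 goes against its label, with Mycl at 8.87 where the median of its group was 5.99; without it the count was again 9, with 7 of the genes shared and Hspa1a no longer called.

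Several lists had medians on opposite sides of 0 in the comparisons, and others, such as MHC class I presentation (0.03 for Mxd1 and 0.14 for Mycl) and sterol and fatty acid synthesis (-0.03 and -0.10), on the same side. The members of the growth lists held 0 called differences. Ribosome biogenesis was at 0.23 for Mxd1 and -0.44 for Mycl, MYC target core genes at 0.19 and -0.35, aminoacyl-tRNA synthetases at 0.27 and -0.39, and cDC1 identity genes at 0.20 and -0.18. Costimulation and maturation genes were at -0.18 and 0.52, with 1 difference called, that of Ccl4. Type I interferon genes were at -0.01 and 0.83. Single members of these lists thus did not separate the effects beyond the spread of the arrays, apart from Ccl4. The Mycl medians rest on Mycl+/+ arrays that differed among themselves. Mxd1 ran from 8.86 to 10.76 in them and from 10.50 to 10.76 in MyclGFP/GFP arrays. Hspa1a ran from 8.80 to 10.34 and from 10.47 to 11.05. How far this spread among Mycl+/+ arrays sets the Mycl medians was not tested.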

How the data were processed

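The authors deposited log2 levels of 35556 transcript clusters per array, made with the Affymetrix Expression Console and RMA, per the submitters' processing notes. Tool versions, and whether sets were scaled together: not given in the sources used here. RMA equalises arrays and no spike-in values were used here, so every change is relative to the other transcripts.

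Clusters were named through the platform annotation: 21789 had 1 gene symbol, 1621 several, and 12146 were not listed in it. The 19938 genes were each represented by the cluster of highest mean over all arrays (999 had several), and 14080 were tested, being at or above the 30th percentile of named clusters in at least 3 arrays. Differences were tested with lmFit and eBayes (limma 3.58.1, R 4.3.3), two-sided, on the 6 arrays alone, with Benjamini-Hochberg adjustment over all genes and a threshold of 0.05. Errors after a difference are the fit's SE. The fits were checked on simulated data.

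The gene lists and members were chosen with earlier results of these data known. Named were the network, the genes called with the next by p up to 12 a direction, genes from the 3 members of smallest p in each list, the 3 flanking genes of smallest p and the 8 of the Mycl comparison. The number of arrays limits the precision. Replicate numbers are shared by both groups but nothing says that they pair arrays, so they were not used as pairs in the main fit.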

Additional observations from a re-analysis of the deposited data

How the results depend on the processing

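The 10 calls became 10 with no filter, 9 with a filter at the 50th percentile, 10 with the cluster of highest mean over the 6 arrays, 9 after quantile normalization, 7 after median centring and 11 with a trended, robust prior. They became 235 with all 8 groups in 1 fit, 16 with the replicate number as a block and 18 with array weights. Leaving out each array in turn gave 3 to 568 calls, and leaving out WT arrays 1 and 3, chosen after seeing the data, gave 17. Deviations of same-numbered arrays from their group means correlated at 0.24, -0.19 and -0.02, and those of differently numbered arrays at -0.20 to 0.23. With 3 arrays in a group, whose deviations sum to 0, these values cannot show whether arrays were paired. The Mxd1 difference ranged from -0.40 to -0.21 with each array left out, was -0.31 in the replicate block fit (adjusted p = 0.206), and was past the threshold in none of its 9 alternatives. The count of differences from the Mycl effect was 18 after quantile normalization, 9 with no filter, 9 without Mycl KO array 3, and 2 to 235 with each Mxd1-set array left out. Among the flanking genes, 0 were called with 10 on each side and 1 with 40. No called value changed sign under any alternative. The settings kept the side of the threshold for single named genes in 1877 cases, lost a call in 39 and gained one in 90, and 13 uncalled values moved across 0. List medians moved by more than the spread between arrays in 29 of 527 cases. Why single arrays move the counts was not tested.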

Other observations

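Further gene groups held small differences in both directions, with 0 members past limma's test in each. Among 27 genes of sterol and fatty acid synthesis, 12 lay above and 15 below 0, with a median of -0.03. The fatty acid enzyme genes Acaca, Fasn, Scd1, Scd2, Elovl6 and Acly all lay above 0, from 0.09 (Scd2) to 0.55 (Elovl6). The sterol enzyme genes tested lay below 0 apart from Pmvk (0.002), Nsdhl (0.06) and Ebp (0.10), with Lss (-0.002) and Sqle (-0.03) only just below. Whether the sterol and fatty acid arms differed as groups was not tested. The sterol enzyme gene Msmo1 was at 9.29, 8.91 and 8.89 in WT and 8.49, 8.40 and 8.53 in labelled KO arrays (-0.56 ± 0.12, adjusted p = 0.146), and Fdft1, which makes squalene, was at 9.51, 9.23 and 9.22 against 8.90, 8.86 and 8.80 (-0.46 ± 0.10, adjusted p = 0.146). Elovl6, which lengthens fatty acids, was at 6.27, 6.65 and 6.77 against 7.02, 7.30 and 7.03 (0.55 ± 0.14, adjusted p = 0.183). The groups did not overlap in Msmo1, Fdft1 or Elovl6.

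Among 25 genes of apoptosis and survival the median was -0.06. Bcl2l1 (BCL-XL), a survival protein gene, was at 8.12, 7.86 and 8.04 in WT and 7.63, 7.51 and 7.58 in labelled KO arrays (-0.43 ± 0.09, adjusted p = 0.146). The mediators of death Diablo (0.21 ± 0.07, adjusted p = 0.237) and Bid (0.34 ± 0.12, adjusted p = 0.252) lay higher without overlap. Lysosome and autophagy genes (29 tested) had a median of -0.02, with the lysosomal hydrolase gene Hexa at 0.46 ± 0.15 (adjusted p = 0.231), and the autophagy genes Ulk1 and Gabarapl1 at -0.36 and -0.29. Of the corepressor subunits, Ing2 was at 7.90, 7.78 and 7.94 in WT and 7.59, 7.55 and 7.45 in labelled KO arrays (-0.35 ± 0.08, adjusted p = 0.169), and Rbbp4 and Sap30l were at 0.61 and -0.42.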
